A study of Mus musculus with 6 samples.

Results

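Muscle connective tissue is the fibroblast tissue that surrounds muscle fibres and their bundles. In the limb bud it arises from the lateral plate mesoderm, whereas the muscle precursors migrate in from the somites. Its fibroblasts are known to lay down collagens and proteoglycans and to guide muscle precursors through secreted signals, and in mouse limbs the zinc finger transcription factors Osr1 and Osr2 and the Wnt effector Tcf7l2 are among its known markers. The cells described here are those that the study's annotation of mouse hindlimb buds at E11.5 named Muscle Connective Tissue, and they were taken by that name alone. They numbered 377, of which 262 came from Dup and the others from wild type, of 6944 cells in the annotated table and of 26486 cells in the series, and all were members of 1 Louvain cluster of the integrated data at resolution 1.

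The series holds 6 droplet single-cell RNA-seq libraries with 3′ end counting, 1 library per group. The 2 libraries that carry this label came from hindlimbs of homozygous Dup embryos and of C57BL/6 wild-type embryos, both at E11.5 and both on a C57BL/6 background. Dup is an engineered tandem duplication whose extra copy carries Fbxw4, Dpcd, Poll, Btrc and Lbx1 and ends short of Fgf8, in mice that trace back to edited G4 embryonic stem cell clones, a hybrid mouse stem cell line. The other 4 libraries, used once near the end, came from hindlimbs and forelimbs at E11.5. Their embryos were homozygous for an inversion at the same locus (Inv1) or G4 wild type, and both were on the hybrid G4 background. With 1 library per group no test between groups was possible. All intervals are exact 95% intervals that cover counting error only and say nothing of the spread between embryos.

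After cells with 2000 or fewer detected genes were left out, 376 labelled cells remained, 261 of them from Dup, since 1 Dup cell was removed. They held 1849232 unique molecular identifiers (UMIs, each 1 captured transcript) in Dup, with a median of 6625 per cell, and 1069853 in wild type, with a median of 7862 per cell. Levels are UMIs summed over the cells of a label and given per 1000000 UMIs of those cells (CPM), and 3 UMIs corresponded to 1.62 CPM in Dup and 2.80 CPM in wild type. Because reads were counted at 3′ ends, a level was not scaled to gene length, and levels of different genes were not ranked. The libraries shared 9 cell barcodes, of which 1 belonged to the labelled cells.

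The labelled cells were first set against the markers of their name, and 2 of 4 went against it. Osr1 was measured at 172 CPM (154 to 192) in Dup and 91.6 CPM (74.4 to 112) in wild type, above Stylopod mesenchyme, the next label, which had 114 and 66.2 CPM in Dup and wild type. The labelled cells thus exceeded that label 1.5-fold (1.31 to 1.73) in Dup and 1.38-fold (1.1 to 1.73) in wild type. Col1a1, which encodes a chain of type I collagen, was at 209 CPM (188 to 231) in Dup and 166 CPM (143 to 193) in wild type, and was the highest of the 5 labels in each library. Both of these markers therefore went with the name.

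Osr2 and Ebf1 did not. Osr2 stood at 25.4 CPM (18.7 to 33.8) in Dup labelled cells and 28.0 CPM (18.9 to 40.0) in wild-type labelled cells, about 0.572 and 0.546 times the level in Stylopod mesenchyme of the same library. Ebf1, which encodes a helix-loop-helix transcription factor, was at 99 CPM (85.1 to 114) in Dup and 157 CPM (134 to 183) in wild type. That was the lowest of the 4 mesenchymal labels, with Zeugopod mesenchyme at 896 CPM in Dup and 858 CPM in wild type. Tcf7l2 was also below Stylopod mesenchyme, at 122 CPM against 389 CPM in Dup and 301 CPM against 481 CPM in wild type. The cells are therefore called by their label, by their leading genes or simply labelled cells below, and no other cell type name is given to them.

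**Figure D1:**
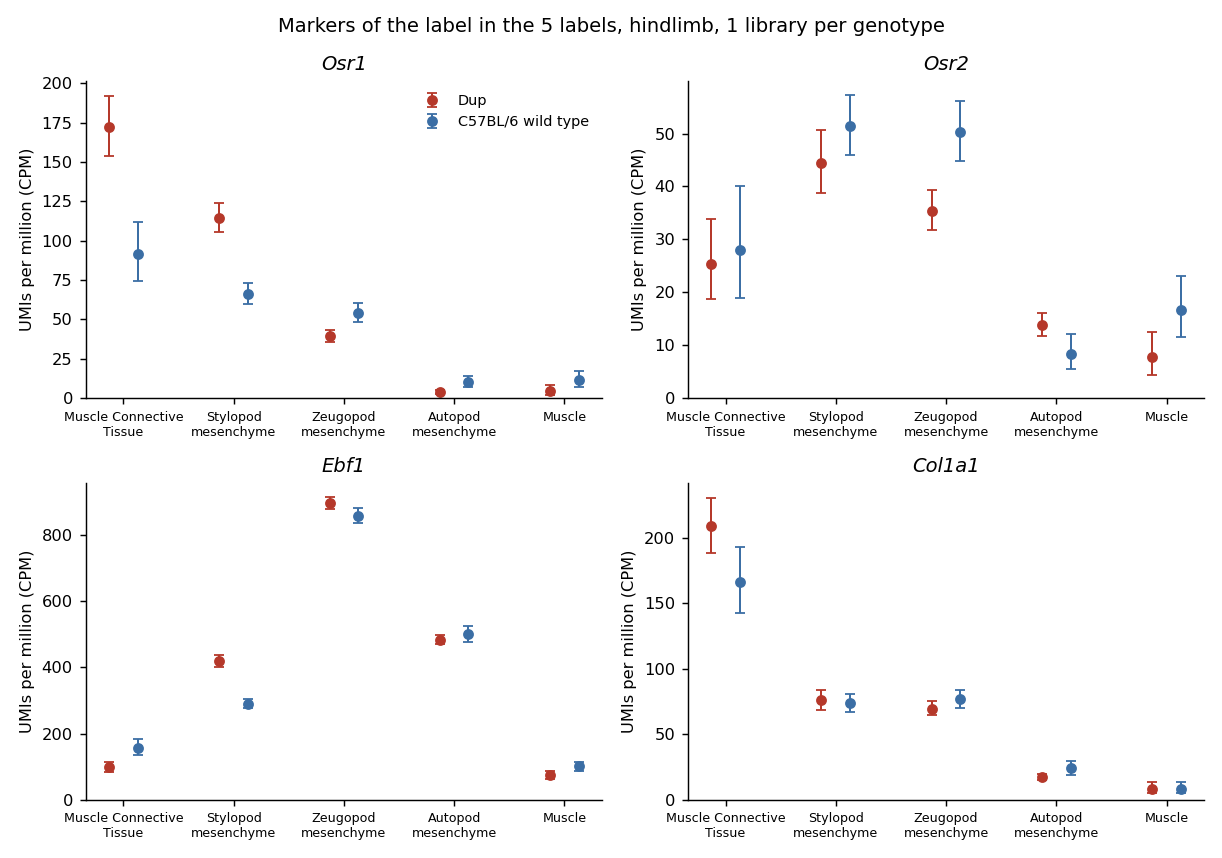
Levels of the 4 markers of the label (CPM, vertical axes) in the labelled cells, the 3 mesenchyme labels and Muscle, with Dup in red to the left of C57BL/6 wild type in blue; points are 1 library each and bars are exact 95% Poisson intervals. Osr1 and Col1a1 are highest in the labelled cells of both libraries, whereas Osr2 is higher in Stylopod and Zeugopod mesenchyme and Ebf1 reaches 896 CPM in Zeugopod mesenchyme of Dup.

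The labelled cells were led by Lum, Calb2, Kera, Emx2 and Dcn. Of 2940 genes with 50 or more CPM in the labelled cells of both libraries, 16 (0.544%) were at least 2-fold above Muscle and above each of the Autopod, Zeugopod and Stylopod mesenchyme labels in both libraries, with 10 CPM added to each level. The labels were made by clustering the same cells on the same genes, so these values describe the cluster and test nothing. In order, the 16 genes were Lum, Calb2, Kera, Emx2, Dcn, Wif1, Pcdh10, Smoc2, Tril, Dnm3, Col12a1, Ednra, Cxcl14, Sema5a, Col1a1 and Tmem132c. The next 9, which fell short of that threshold, were Pvrl2, Igf1, C130021I20Rik, Col5a1, Zfhx4, Spats2l, Lmx1b, Zfhx3 and Stra6. At the threshold itself, Tmem132c was 2.20-fold above the highest other label in Dup and 2.65-fold in wild type, and Pvrl2 was 2.37-fold and 2.27-fold above it before the 10 CPM were added.

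Lum, Kera and Dcn encode lumican, keratocan and decorin, small leucine-rich proteoglycans that bind collagen fibrils and help to set their diameter. Lum was at 893 CPM (850 to 937) in Dup labelled cells and 496 CPM (455 to 540) in wild-type labelled cells, which was 18.5-fold (16.7 to 20.6) and 23.0-fold (19 to 28.0) above Zeugopod mesenchyme. Kera was at 171 CPM (153 to 191) in Dup and 86.0 CPM (69.3 to 105) in wild type, and no other of the 5 labels exceeded 4.87 CPM. Dcn was at 149 CPM (132 to 168) in Dup and 87.9 CPM (71.0 to 108) in wild type, 6.43-fold and 8.53-fold above Zeugopod mesenchyme. All of these were lower in Stylopod and Autopod chondrocyte progenitors as well, where Kera had 0 UMIs in both libraries.

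These proteoglycan genes are neighbours. On NCBIM37, the assembly behind mm9, Dcn lies at chr10:96942245-96980777, Lum at chr10:97028135-97035337 and Kera at chr10:97069817-97076322, all on the plus strand. The gaps are 47357 bases between Dcn and Lum and 34479 bases between Lum and Kera, and no other gene of the count matrix lies between them. A second neighbouring pair stood among the 25 leading genes. Lmx1b, the LIM homeobox gene that specifies dorsal limb identity, lies at chr2:33416485-33496031 on the minus strand, and C130021I20Rik at chr2:33496713-33501869 on the plus strand, with 681 bases between their ends. Lmx1b had 62.7 CPM (51.8 to 75.2) in Dup labelled cells and 50.5 CPM (37.9 to 65.9) in wild-type labelled cells, and C130021I20Rik had 67.6 CPM (56.3 to 80.5) in Dup and 50.5 CPM (37.9 to 65.9) in wild type. Both were between 14.7 and 31.6 CPM in the 3 mesenchyme labels and under 2 CPM in Muscle.

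Promoter windows of the divergent pair and of Kera are shown because these genes led the label side by side with a neighbour. Each window runs from 250 bases before to 50 bases after the RefSeq start on GRCm38.p6 (Lmx1b at chr2:33641049-33641348 on the minus strand, C130021I20Rik at chr2:33640943-33641242 on the plus strand, Kera at chr10:97606955-97607254 on the plus strand), is written 5′ to 3′, and has matches to CANNTG, the E-box core, in capitals.
Lmx1b: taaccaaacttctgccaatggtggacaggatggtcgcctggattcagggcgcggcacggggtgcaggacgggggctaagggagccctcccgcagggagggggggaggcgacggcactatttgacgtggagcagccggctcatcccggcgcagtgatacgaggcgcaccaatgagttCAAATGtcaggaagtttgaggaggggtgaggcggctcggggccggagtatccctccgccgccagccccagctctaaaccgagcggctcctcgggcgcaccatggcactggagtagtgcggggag
C130021I20Rik: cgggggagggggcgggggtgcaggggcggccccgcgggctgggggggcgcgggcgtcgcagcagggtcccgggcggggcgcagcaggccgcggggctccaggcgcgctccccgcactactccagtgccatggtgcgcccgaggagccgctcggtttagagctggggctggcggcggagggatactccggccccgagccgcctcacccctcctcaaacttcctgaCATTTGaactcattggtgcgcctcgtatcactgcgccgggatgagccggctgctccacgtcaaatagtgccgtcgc
Kera: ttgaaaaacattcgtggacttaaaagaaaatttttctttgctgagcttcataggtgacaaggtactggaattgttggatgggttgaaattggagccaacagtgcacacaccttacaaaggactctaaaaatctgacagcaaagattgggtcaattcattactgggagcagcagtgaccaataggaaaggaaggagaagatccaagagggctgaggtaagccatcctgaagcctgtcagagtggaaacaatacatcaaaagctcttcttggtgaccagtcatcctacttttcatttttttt
The Lmx1b and C130021I20Rik windows share 194 bases, read on opposite strands, and the match in capitals is the same 6 bases in each. CANNTG reads the same on both strands, and the Kera window held no match to it. The TATA box core TATAAA and the homeodomain core TAATTA, searched on both strands, were not found in that window either. RefSeq windows were at hand for 17 of the 25 leading genes, some with several starts. Of their 20 windows, 11 held CANNTG, against 72.3% of all 32851 windows. The TATA box core was in 1 of them (Wif1) against 13.6% of all, and the homeodomain core in 1 (Emx2) against 5.29% of all. A match only says that the letters occur there.

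Calb2 and Emx2 were the other genes nearly confined to the label among these 5. Calb2, which encodes the calcium-binding protein calretinin, was at 290 CPM (266 to 316) in Dup and 204 CPM (178 to 233) in wild type, and at most 8.02 CPM in any of the other labels. Emx2, a homeobox gene required for the scapula in mice, was at 56.8 CPM (46.4 to 68.7) in Dup and 68.2 CPM (53.5 to 85.8) in wild type. Stylopod mesenchyme, the next label, had 2.57 CPM of Emx2 in Dup and 5.74 CPM in wild type.

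Pcdh10, a protocadherin gene of cell adhesion, was at 238 CPM in Dup and 220 CPM in wild type, 3.40-fold and 4.46-fold above the next label. A further group encodes secreted modulators and signals. Wif1, a secreted Wnt inhibitor, was at 202 CPM (182 to 223) in Dup and 163 CPM (139 to 189) in wild type, 3.93-fold and 4.16-fold above Zeugopod mesenchyme. Cxcl14, a chemokine gene, was at 334 CPM (308 to 362) in Dup and 350 CPM (315 to 387) in wild type, 2.15-fold and 3.75-fold above Stylopod mesenchyme. Smoc2, which encodes a secreted calcium-binding matrix protein, was 3.8-fold and 3.86-fold above the next label in Dup and wild type. The genes for the endothelin receptor Ednra and the guidance protein Sema5a were between 2.28-fold and 2.70-fold above Stylopod mesenchyme in the libraries. Stra6, which encodes the receptor for retinol-binding protein, was the last of the 25, at 76.8 CPM in Dup and 57 CPM in wild type, with Muscle as its next label at 20.3 CPM in Dup and 29.5 CPM in wild type.

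**Figure D2:**
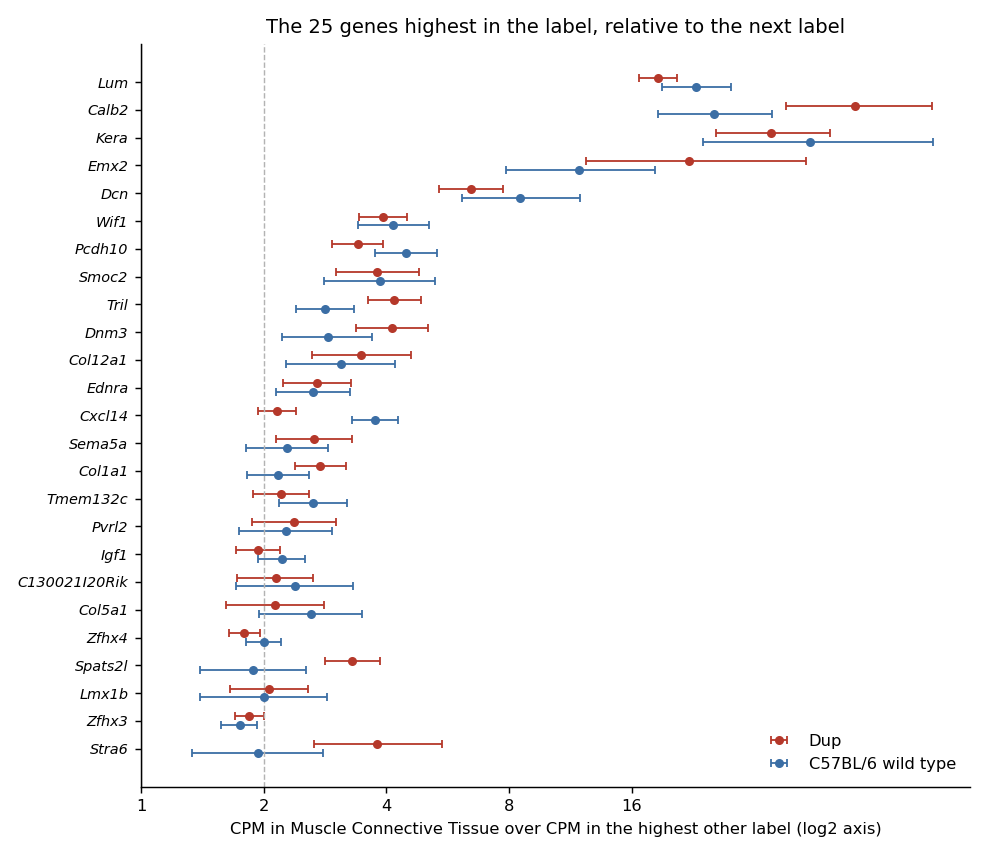
Ratio of the CPM in the labelled cells to the CPM in the highest of Muscle and the 3 mesenchyme labels (horizontal log2 axis) for the 25 leading genes, with Dup in red above C57BL/6 wild type in blue; bars are exact 95% intervals of the ratio and the dashed line marks 2-fold. Lum, Calb2, Kera, Emx2 and Dcn stand apart from the rest, from 6.43-fold for Dcn to 56.5-fold for Calb2 in Dup.

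Collagen and matrix genes were often highest in the labelled cells. The reference was all 3497 genes with 50 or more CPM in both libraries of at least 1 of the 5 labels. The labelled cells were the highest in both libraries for 13.7% of them, and the lowest of the 4 mesenchymal labels for 12.2%. Counts of highest or lowest list members below stand beside these shares. Of 8 measured fibrillar and associated collagens, 7 were highest in the labelled cells (Col1a1, Col1a2, Col3a1, Col5a1, Col12a1 and Col23a1 among them). Col3a1, a chain of type III collagen, was at 778 CPM in Dup and 952 CPM in wild type, against 554 and 520 CPM in Stylopod mesenchyme of Dup and wild type. Col12a1, which encodes a collagen that sits on fibril surfaces, was at 63.8 CPM in Dup and 62.6 CPM in wild type, 3.47-fold and 3.09-fold above Stylopod mesenchyme. Col5a2 was the exception, with 48.7 CPM in Dup and 54.2 CPM in wild type and higher levels in Stylopod mesenchyme.

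Of 15 measured genes of fibroblast matrix and its assembly, 10 were highest in the labelled cells, among them Fn1 (fibronectin), Fbln1, Sparc, Serpinh1, which encodes the collagen chaperone HSP47, and Mfap2. Serpinh1 was at 688 CPM in Dup labelled cells and 754 CPM in wild-type labelled cells, 1.47-fold and 1.52-fold above the next label. Vcan, which encodes the large proteoglycan versican, was the clearest exception, at 73.5 CPM in Dup and 202 CPM in wild type against 510 and 501 CPM in Stylopod mesenchyme of Dup and wild type.

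Among 16 measured transcription factors of the connective tissue list, 9 were highest in the labelled cells (Osr1, Tcf4, Zfhx3, Zfhx4, Meox2, Twist1, Twist2, Foxp1 and Lmx1b). The zinc finger homeobox genes Zfhx3 and Zfhx4 were at 514 and 470 CPM in Dup and at 458 and 511 CPM in wild type, and both were between 1.74-fold and 2.0-fold above Stylopod mesenchyme. Ebf1 was the only member that was lowest of the mesenchymal labels. Tcf4 in this list is the E-protein gene of that symbol and not Tcf7l2.

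Distal limb genes were low in the labelled cells, and 2 of 11 measured proximal genes were highest there. Of 13 measured distal limb genes, 0 were highest and 4 were lowest of the mesenchymal labels in both libraries (Hoxd13, Hoxa10, Lhx9 and Msx1). Over all 3497 genes the shares were 13.7% highest and 12.2% lowest. Hoxd13, a homeobox gene of the digit-forming autopod, had 9.19 CPM in Dup and 14.0 CPM in wild type, against 285 and 283 CPM in Autopod mesenchyme of Dup and wild type. Shox2, a homeobox gene needed for the stylopod, was highest in the labelled cells, at 728 CPM in Dup and 592 CPM in wild type, 1.61-fold and 1.53-fold above Stylopod mesenchyme. Pitx1, the hindlimb identity gene, was likewise highest, at 749 CPM in Dup and 626 CPM in wild type.

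The proximal list was not uniform, however. Of 11 measured members, 2 were highest in the labelled cells (Shox2 and Emx2), beside 13.7% over all 3497 genes. The 13 listed genes summed to 1552 CPM in Dup labelled cells and 1777 CPM in wild-type labelled cells. In Stylopod mesenchyme they summed to more, 1684 and 2167 CPM in Dup and wild type. Meis1 and Meis2, homeobox genes that mark the proximal limb, were below Stylopod mesenchyme. Meis2 was at 77.9 CPM in Dup and 182 CPM in wild type against 284 and 455 CPM in Stylopod mesenchyme of Dup and wild type. Hand2 and Ptch1, a posterior limb gene and the Shh receptor gene that Shh itself induces, were both lowest of the mesenchymal labels, Ptch1 with 14.1 CPM in Dup and 19.6 CPM in wild type.

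Signals and receptors in the exchange with muscle precursors were mixed. Of 11 measured signals, 4 were highest in the labelled cells (Igf1, Efnb1, Sema3a and Dlk1) and 2 were lowest of the mesenchymal labels (Pdgfc and Rspo3). Igf1, a growth factor that promotes muscle growth, was at 242 CPM (220 to 265) in Dup labelled cells and 295 CPM (264 to 330) in wild-type labelled cells, 1.94-fold and 2.21-fold above Stylopod mesenchyme. Cxcl12, a chemokine for migrating muscle precursors, was not a feature of these cells, at 31.4 CPM in Dup and 67.3 CPM in wild type against 149 and 183 CPM in Stylopod mesenchyme of Dup and wild type. Hgf, the ligand of the Met receptor, was under 50 CPM in all 5 labels.

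The low side of the label was modest in size. Among genes with 50 or more CPM in Muscle and each mesenchyme label in both libraries, the 10 with the lowest relative level were Hes1, Cited2, Pdlim4, Zfp428, 2010111I01Rik, Wdr75, Msi2, Syf2, Id3 and Mum1. Hes1, a Notch target that encodes a repressor, was at 40.0 CPM (31.4 to 50.2) in Dup labelled cells and 45.8 CPM (33.9 to 60.6) in wild-type labelled cells, and the other labels ranged between 70.4 and 208 CPM. Id3, a BMP target, was at 426 CPM in Dup and 384 CPM in wild type, against 809 and 573 CPM in Muscle of Dup and wild type. After each cell was thinned to 4000 UMIs, Id3 in wild type stood at 1.01 times the lowest other label (0.866 before). Msi2 then stood at 1.07 times it in Dup (0.643 before) and 1.11 times it in wild type, so these genes were no longer lowest there. Of 6 measured members of the BMP list, 3 were lowest of the mesenchymal labels (Id1, Id3 and Smad7).

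Markers of muscle and of several other cell types were at low levels in the labelled cells. The 12 defining muscle genes, Pax3, Myf5, Myod1, Myog and Lbx1 among them, summed to 14.1 CPM in Dup and 30.8 CPM in wild type, which was 0.557% and 1.75% of their sum in Muscle of the same library. In Dup 6 of the 12 had 0 UMIs, Pax3, Pax7, Myf5 and Myod1 included, and in wild type 3 had 0. A UMI of at least 1 of them was seen in 8.05% of Dup labelled cells and 24.3% of wild-type labelled cells, and in 0 cells were 3 or more of them seen together. The corresponding shares in the 3 mesenchyme labels lay between 10.2% and 11.4% in Dup and between 19% and 23.3% in wild type. The Dup share, with an interval of 5.05% to 12.0%, lay below those of the mesenchyme labels, and that interval takes in all 3. The wild-type share, with an interval of 16.8% to 33.2%, lay just above them, and that interval takes in all 3. The source of these UMIs was not tested. Median depth was 7862 UMIs in wild-type labelled cells and between 8044 and 9108 in the mesenchyme labels of that library, against 6625 and between 6069 and 7570 in Dup. Endothelial, neural crest, epithelial and immune marker lists summed to between 6.49 and 42.2 CPM in Dup and between 14.0 and 63.6 CPM in wild type.

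Tendon and cartilage markers were present in part. Scx, the early tendon progenitor transcription factor, was at 127 CPM (111 to 144) in Dup and 256 CPM (227 to 288) in wild type. Stylopod mesenchyme had 265 and 246 CPM of Scx in Dup and wild type, and the later tendon gene Tnmd had 0 UMIs in labelled cells of both. Of 3 measured genes of the tendon list, 1 was highest in the labelled cells, namely Kera. The 12 genes of that list summed to 408 CPM in Dup and 460 CPM in wild type. In Stylopod mesenchyme they summed to 421 and 401 CPM in Dup and wild type. Of 6 measured chondrogenic genes, 0 were highest in the labelled cells. Sox9, the cartilage master regulator, was at 61.1 CPM in Dup and 116 CPM in wild type, against 294 and 378 CPM in Stylopod mesenchyme of Dup and wild type. Of 17 measured cell cycle genes, 0 were highest and 2 were lowest of the mesenchymal labels.

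Within the label, the leading genes did not mark every cell. After each cell was thinned to 4000 UMIs, Lum was detected in 172 of 260 Dup cells (66.2%) and 53 of 113 wild-type cells (46.9%). In Muscle, which should lack it, the shares were 1.06% in Dup and 1.52% in wild type. Before thinning, they were 70.5% and 54.8% in labelled cells of Dup and wild type. Kera was detected in 64 of the 172 Dup cells with Lum and in 0 of the 88 without, and in 19 of the 53 wild-type cells with Lum and 3 of the 60 without. The count of 0 of 88 limits cells with a detected UMI only. Osr1 was detected in 47.1% of Dup cells with Lum and 37.5% of those without, and in 41.5% and 16.7% of wild-type cells with and without Lum. Igf1 was the opposite, in 41.3% of Dup cells with Lum and 64.8% of those without, and in 43.4% and 63.3% of wild-type cells with and without Lum.

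Finer Louvain clusters of the deposited table, at resolution 3, divided the labelled cells in a like way. They were read after seeing the data. Cluster 16 held 148 Dup and 83 wild-type labelled cells, and cluster 18 held 107 and 31 kept labelled cells of Dup and wild type, together nearly all of them. Cluster 16 consisted almost wholly of labelled cells (231 of 232), whereas 139 of 217 cells of cluster 18 carried the label and the others had mesenchyme labels. Cluster 16 made up 56.7% (50.5 to 62.8) of Dup labelled cells and 72.2% (63.0 to 80.1) of wild-type labelled cells, a ratio of 0.786 (0.597 to 1.04). Cluster 18 made up 41.0% (35.0 to 47.2) in Dup and 27.0% (19.1 to 36.0) in wild type (ratio 1.52, interval 1.01 to 2.35).

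The proteoglycan genes belonged to cluster 16. There Lum was at 1440 CPM in Dup and 731 CPM in wild type, while in cluster 18 it was at 161 CPM in Dup and 9.0 CPM in wild type. Kera was at 296 CPM in Dup and 125 CPM in wild type in cluster 16, and at 6.6 and 6.0 CPM in cluster 18 of Dup and wild type. Col1a1 differed less, at 281 and 219 CPM in cluster 16 and 112 and 60.0 CPM in cluster 18, Dup and wild type in that order. Calb2, Dcn, Emx2, Spats2l, Sparc and Dlk1 also led cluster 16.

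Cluster 18 was led by Lhx9, Igf1, Mecom, Asb4, Mme, Mab21l2 and Irx3. Lhx9, a LIM homeobox gene of the limb mesenchyme, was at 116 CPM in Dup and 168 CPM in wild type there, against 20.9 and 34.7 CPM in cluster 16 of Dup and wild type. Igf1 was at 364 CPM in Dup and 549 CPM in wild type there, and at 156 and 180 CPM in cluster 16 of Dup and wild type. Osr1 was present in both clusters, from 42.0 CPM in cluster 18 of wild type to 205 CPM in cluster 16 of Dup. The 2 clusters were made from the same genes, so these differences describe them and test nothing.

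**Figure D3:**
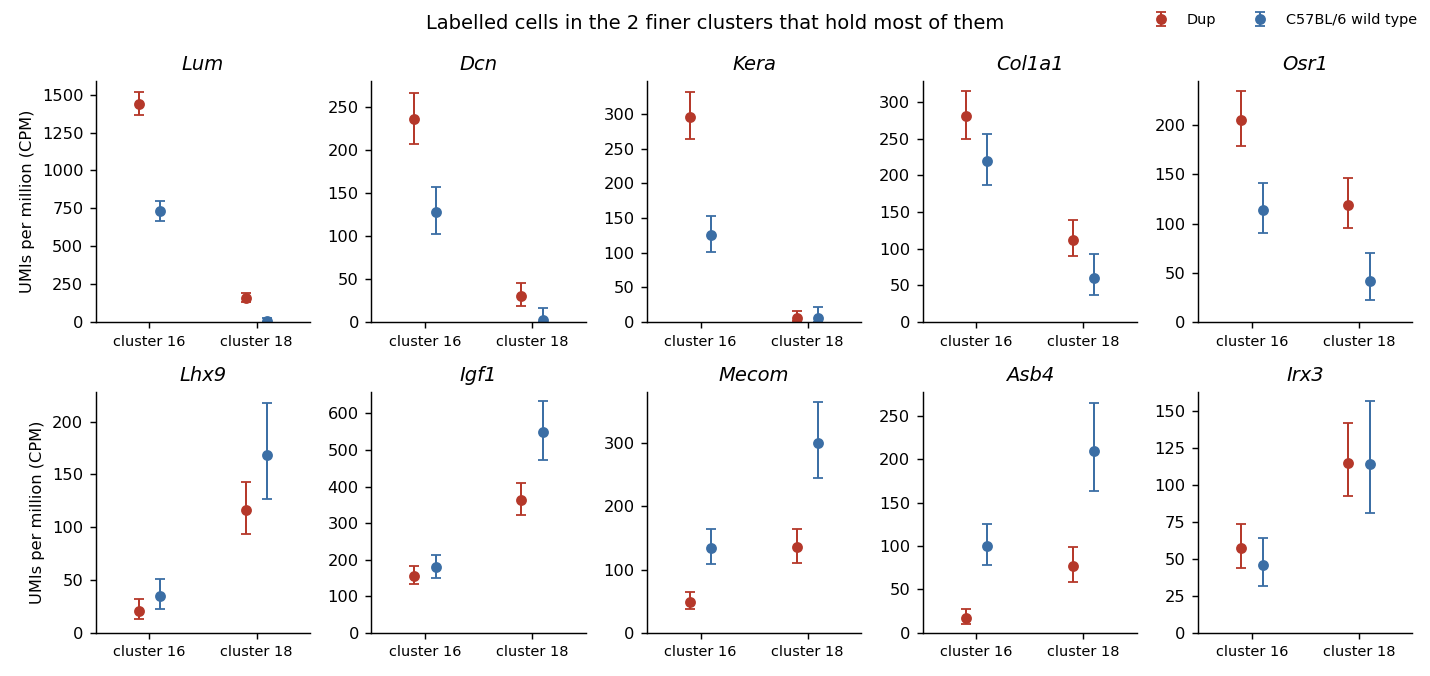
Levels of 10 genes (CPM, vertical axes) in the labelled cells of finer clusters 16 and 18, with Dup in red to the left of C57BL/6 wild type in blue; points are 1 library each and bars are exact 95% Poisson intervals. Lum, Dcn, Kera and Col1a1 are higher in cluster 16 of both libraries, and Lhx9, Igf1, Mecom, Asb4 and Irx3 are higher in cluster 18.

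The share of labelled cells was close between the genotypes. They made up 5.62% (4.97 to 6.32) of kept Dup cells and 5.11% (4.24 to 6.11) of kept wild-type cells, so that the ratio was 1.1 (0.879 to 1.38). Per Muscle cell there were 1.39 labelled cells in Dup and 0.871 in wild type (ratio 1.59, interval 1.27 to 2.0), as Muscle itself made up 4.04% of Dup cells and 5.87% of wild-type cells. The other mesenchyme shares differed more. Autopod mesenchyme made up 31.6% of Dup cells and 14.5% of wild-type cells, and Stylopod mesenchyme 16.7% and 30.6% of Dup and wild-type cells. With 1 dissection per genotype, a difference in the piece of limb taken and a difference between genotypes cannot be told apart.

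The duplicated genes were higher in Dup labelled cells. Of the duplicated genes, Btrc, which encodes a ubiquitin ligase adaptor, was at 50.8 CPM in Dup and 27.1 CPM in wild type (ratio 1.88, interval 1.23 to 2.95). Dpcd was at 107 CPM in Dup and 65.4 CPM in wild type (ratio 1.63, interval 1.23 to 2.17). Poll, a DNA polymerase gene, and Fbxw4, an F-box gene, were under 20 CPM, with ratios of 3.09 (1.27 to 9.03) and 2.08 (1.01 to 4.71). The 4 genes summed to 194 CPM in Dup and 107 CPM in wild type (ratio 1.81, interval 1.46 to 2.25). That sum was between 2.02 and 2.45 times higher in Dup in Muscle and the 3 mesenchyme labels.

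Neither developmental gene of the locus was a feature of the labelled cells. Lbx1, the homeobox gene of migrating muscle precursors, had 1 UMI in Dup and 0 in wild type, both within the limit of 3 counts, whereas Muscle had 211 CPM in Dup and 134 CPM in wild type. Fgf8 had 1 UMI in Dup and 9 in wild type, 0.541 and 8.41 CPM. The 14 genes that flank the duplication summed to 583 CPM in Dup labelled cells and 595 CPM in wild-type labelled cells, a ratio of 0.979 (0.887 to 1.08).

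Beyond the locus, few genes differed by much between the genotypes within the labelled cells. Among the 3226 genes that averaged at least 50 CPM across both libraries, 12 (0.372%) were at least 1.5-fold higher and 22 (0.682%) at least 1.5-fold lower in Dup, with 50 CPM added to each level. The median log2 ratio of all measured genes was -0.04. Median-of-ratios scaling raised the log2 ratio of levels by 0.14 before the 50 CPM were added, and by less afterwards. It gave 18 higher and 15 lower genes. With 1 library per genotype these counts describe 2 libraries. In order, the 12 higher genes were Anxa2, Crabp1, Lum, Fos, Kera, Twist2, Cdo1, Alad, Nbl1, Jun, Osr1 and Tpm1. The 12 lowest, leaving out haemoglobin, Xist and Y-linked genes, included Vcan, Tcf7l2, Asb4, Meis2, Mecom, Scx, Fibin, Peg10, Meis1, Sfrp1 and Ptn.

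Of the 25 leading genes of the label, Lum and Kera were among the 12 higher genes. Others had ratios below 1, such as Igf1 at 0.818 (0.707 to 0.948) and Tmem132c at 0.806 (0.656 to 0.991), without reaching 1.5-fold. Lum had a ratio of 1.80 (1.63 to 1.99) in the labelled cells, 3.00 (2.36 to 3.83) in Stylopod mesenchyme and 2.23 (1.83 to 2.73) in Zeugopod mesenchyme. Kera had a ratio of 1.99 (1.58 to 2.54), and 2.37 (1.87 to 3.03) within cluster 16 alone. Dcn, the third of the neighbours, had a ratio of 1.70 (1.34 to 2.17) and was under 1.5-fold once 50 CPM had been added. Cells with a detected Lum UMI were also more frequent in Dup, as given above.

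Osr1 had a ratio of 1.88 (1.49 to 2.38) in the labelled cells and 1.73 (1.52 to 1.97) in Stylopod mesenchyme. In the other labels it was lower in Dup, with ratios of 0.724 (0.622 to 0.842) in Zeugopod mesenchyme, 0.361 (0.226 to 0.583) in Autopod mesenchyme and 0.381 (0.156 to 0.85) in Muscle. Twist2, a helix-loop-helix gene of dermal and connective fibroblasts, was at 209 CPM in Dup and 111 CPM in wild type (ratio 1.88, interval 1.52 to 2.32), and its ratios in the 3 mesenchyme labels were between 0.959 and 1.01. Crabp1, which encodes a retinoic acid-binding protein, was at 591 CPM in Dup and 312 CPM in wild type (ratio 1.89, interval 1.67 to 2.14).

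Anxa2, a membrane-binding annexin gene, had the highest log2 ratio after 50 CPM had been added, with 83.8 CPM in Dup and 21.5 CPM in wild type, 155 and 23 UMIs. Its ratio was 3.90 (2.51 to 6.33) in the labelled cells and between 1.76 and 2.27 in Stylopod mesenchyme, Zeugopod mesenchyme and Muscle, but 0.829 (0.546 to 1.29) in Autopod mesenchyme. Tpm1, which encodes a tropomyosin, was at 1075 CPM in Dup and 683 CPM in wild type (ratio 1.57, interval 1.44 to 1.71). Nbl1, which encodes a secreted BMP antagonist, was at 127 CPM in Dup and 62.6 CPM in wild type and was higher in all 5 labels of Dup.

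Fos and Jun, immediate early genes that tissue dissociation is known to induce, were higher in Dup in all 5 labels. Jun had a ratio of 1.73 (1.46 to 2.05) in the labelled cells and between 1.69 and 3.46 in the others. The 18 genes of the dissociation list summed to 1371 CPM in Dup labelled cells and 998 CPM in wild-type labelled cells, a ratio of 1.37 (1.28 to 1.48), and their ratios elsewhere reached 2.37 in Stylopod mesenchyme. Haemoglobin, RNA of red blood cells, summed to 2804 CPM in Dup and 5187 CPM in wild type in the labelled cells, a ratio of 0.541 (0.520 to 0.562), and was also lower in the other labels of Dup. The part of either in the differences above was not tested.

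The genes lower in Dup included both matrix and transcription factor genes. Vcan had a ratio of 0.364 (0.292 to 0.454) in the labelled cells, against 1.02 (0.965 to 1.07) in Stylopod mesenchyme. It was also lower in Dup in Zeugopod mesenchyme (0.661, 0.616 to 0.710) and in Muscle (0.714, 0.560 to 0.907). Its ratio in Autopod mesenchyme was 0.913 (0.806 to 1.04). Tcf7l2 had a ratio of 0.406 (0.341 to 0.483), and was lower in Dup in the other 4 labels as well, with ratios between 0.620 and 0.809. Scx had a ratio of 0.496 (0.415 to 0.593), while the other 4 labels were between 0.844 and 1.08. Connective tissue and tendon markers thus had no common direction in these cells. Osr1, Twist2 and Kera, the last of the tendon list, were higher in Dup, and Tcf7l2 and Scx were lower. Of the label's other markers, Ebf1 had a ratio of 0.630 (0.508 to 0.782). Osr2 had 0.906 (0.561 to 1.48) and Col1a1 1.25 (1.05 to 1.51).

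Meis1 and Meis2 were lower in Dup, with ratios of 0.374 (0.262 to 0.532) and 0.427 (0.342 to 0.533). They were lower in Dup in each of the other 4 labels too, with Meis2 between 0.262 in Autopod mesenchyme and 0.625 in Stylopod mesenchyme. Shox2, of the same list, was at 728 CPM in Dup and 592 CPM in wild type (ratio 1.23, interval 1.12 to 1.35). Of 11 measured proximal genes, 3 were at least 1.5-fold lower and 0 at least 1.5-fold higher, and their median log2 ratio was -0.22. Over all 3226 measured genes, 0.682% were lower and 0.372% higher by that size.

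**Figure D4:**
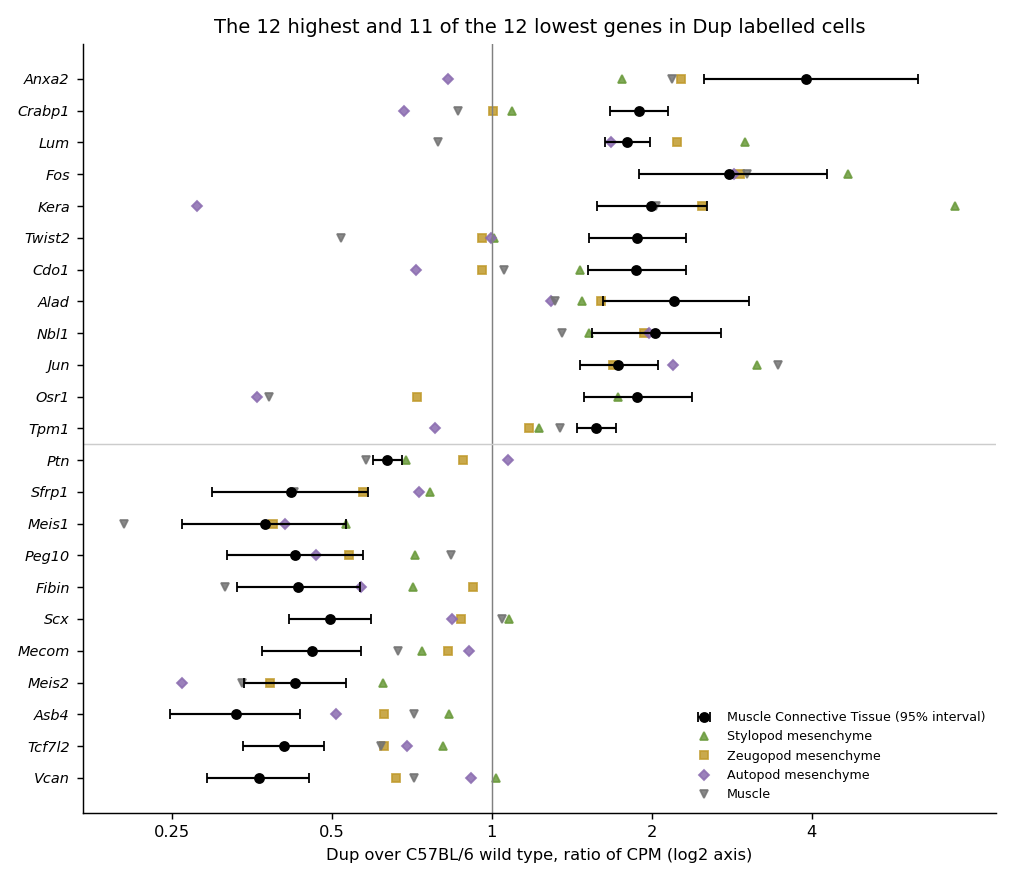
Ratio of the CPM in Dup to the CPM in C57BL/6 wild type (horizontal log2 axis) for the 12 highest and, below the grey line, 11 of the 12 lowest genes in the labelled cells; black points with exact 95% intervals are the labelled cells and coloured symbols without intervals are the other 4 labels. By point value, all 12 higher genes are also above 1 in Stylopod mesenchyme and 5 of them in Autopod mesenchyme. The Stylopod intervals of Twist2 (0.875 to 1.17), Crabp1 (0.996 to 1.19) and Kera (0.902 to 342) take in 1. Osr1 lies at 1.88 in the labelled cells and 0.361 in Autopod mesenchyme.

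Collagen, matrix, transcription factor and cell cycle lists had medians near that of all genes. The median log2 ratio was -0.00376 over 8 collagens, -0.06 over 15 genes of fibroblast matrix, 0.10 over 15 connective tissue transcription factors and -0.06 over 17 cell cycle genes, beside -0.04 over all measured genes. These list medians are all smaller in size than the shift of 0.14 given above, so no direction is given for these lists. Further from it were the medians of 5 measured retinoic acid genes (0.23), 5 Wnt genes (-0.31) and 5 erythroid genes (-0.72). All 5 erythroid genes were at least 1.5-fold lower in Dup, against 1 of the 5 Wnt genes. The Wnt median was 0.16 in cells with over 3000 detected genes. Over all 3226 measured genes, 0.682% were at least 1.5-fold lower and 0.372% at least 1.5-fold higher. Of the 8 collagens 0 passed 1.5-fold, with Col1a1 at a ratio of 1.25 (1.05 to 1.51) and Col3a1 at 0.818 (0.754 to 0.887). Of 5 measured signals to muscle precursors 0 passed 1.5-fold either, with a median of -0.22, and Igf1 had a ratio of 0.818 (0.707 to 0.948).

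Of 8 measured receptor genes of the exchange with muscle, 1 was at least 1.5-fold lower in Dup and 0 were 1.5-fold higher. Of the 8, 7 had a log2 ratio below 0, and the median was -0.37. It was -0.29 under median-of-ratios scaling and -0.12 in cells with over 3000 detected genes. The gene that passed was Pdgfra, the receptor gene that marks many fibroblasts, at 129 CPM in Dup and 220 CPM in wild type (ratio 0.586, interval 0.487 to 0.705). Epha4, an ephrin receptor gene of limb mesenchyme, had a ratio of 0.564 (0.45 to 0.707) and did not reach 1.5-fold once 50 CPM had been added. These counts stand beside 1901 of 3226 measured genes with a log2 ratio below 0. Of the same 3226 genes, 0.682% were at least 1.5-fold lower and 0.372% at least 1.5-fold higher.

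Because the finer clusters took different shares of the labelled cells in the libraries, the 12 highest and 12 lowest genes were read within each. By point value, all 12 higher genes kept their direction in both clusters, as did 11 of the 12 lower ones, Fibin being the exception. Ebf1, in contrast, ran in opposite directions. In cluster 16 it was at 68.3 CPM in Dup and 211 CPM in wild type (ratio 0.324, interval 0.241 to 0.432), and in cluster 18 at 143 CPM in Dup and 48.0 CPM in wild type (ratio 2.97, interval 1.75 to 5.38). Its ratio of 0.630 (0.508 to 0.782) over all labelled cells thus joins unlike values. Vcan was at 63.6 CPM in Dup and 230 CPM in wild type in cluster 16, and at 87.1 and 126 CPM in cluster 18 of Dup and wild type.

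The label was not given in the other 4 libraries, so cells with its leading genes were counted in the broad mesenchyme of all 6, by a rule made after seeing the data. Each cell was thinned to 4000 UMIs and counted if it held 4 or more of the first 10 leading genes. Those 10 genes had been picked as highest in the labelled cells over Muscle and the mesenchyme labels. The shares by label therefore follow from that choice and test nothing. This rule took 147 of 260 Dup labelled cells (56.5%, 50.3 to 62.7) and 45 of 113 wild-type labelled cells (39.8%, 30.7 to 49.5). It took at most 3.50% of any mesenchyme label. That highest share was in wild-type Zeugopod mesenchyme, so in C57BL/6 wild type 22 of the 73 counted cells were labelled Zeugopod and 6 Stylopod mesenchyme. Such cells made up 4.77% (4.15 to 5.45) of mesenchyme in Dup hindlimbs and 3.66% (2.88 to 4.58) in C57BL/6 wild-type hindlimbs. They made up 3.03% (2.59 to 3.52) in Inv1 hindlimbs and 2.16% (1.78 to 2.59) in G4 wild-type hindlimbs. In forelimbs the shares were 5.25% (4.52 to 6.06) in Inv1 and 5.12% (4.30 to 6.05) in G4 wild type. Because the rule also counted cells without the label, and the other 4 libraries carry no such label, these shares cannot be split there. Whether the counted cells of Inv1 and G4 wild type were of the labelled kind cannot be told from them.

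Single leading genes were then read in whole mesenchyme. Calb2 was at 20.7 CPM in Dup and 17.6 CPM in C57BL/6 wild-type hindlimbs, at 8.82 CPM in Inv1 and 3.98 CPM in G4 wild-type hindlimbs, and at 0.95 and 0.342 CPM in forelimbs of Inv1 and G4 wild type. Kera was at 12.0 CPM in Dup and 5.60 CPM in C57BL/6 wild-type hindlimbs, at 4.49 and 3.09 CPM in hindlimbs of Inv1 and G4 wild type, and at 16 and 12.35 CPM in their forelimbs. The 4 hindlimb libraries were thus above both forelimb libraries for Calb2, whereas for Kera the Dup hindlimb level was close to that of G4 wild-type forelimbs. Lum had a mutant to wild-type ratio of 1.90 (1.76 to 2.06) between Dup and C57BL/6 hindlimbs, 1.46 (1.37 to 1.56) between Inv1 and G4 hindlimbs and 1.49 (1.38 to 1.60) between Inv1 and G4 forelimbs. Osr1 had ratios of 0.900 (0.827 to 0.979), 1.02 (0.949 to 1.1) and 0.948 (0.875 to 1.03) over the same pairs. In whole mesenchyme, more cells with a gene and more RNA per cell cannot be told apart.

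**Figure D5:**
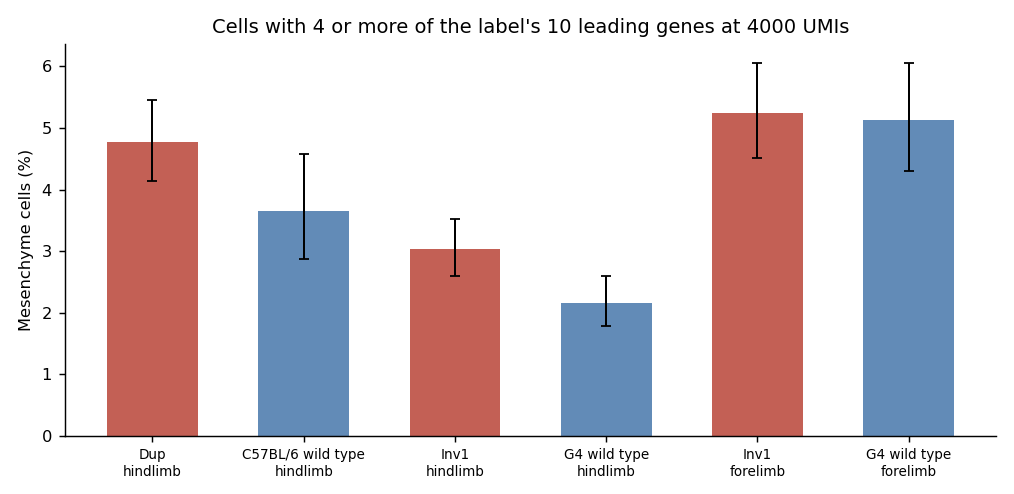
Share of mesenchyme cells (percent, vertical axis) with 4 or more of the label's 10 leading genes after thinning to 4000 UMIs, with each mutant in red to the left of its own wild type in blue; bars are 1 library each with exact 95% Clopper-Pearson intervals. Shares run from 2.16% in G4 wild-type hindlimbs to 5.25% in Inv1 forelimbs.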

How the data were processed

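The deposited matrices hold whole UMI counts that were not normalised. According to their methods, the authors obtained these counts by Cell Ranger 3 with a custom mm9 genome, and the submitters' notes name mm10 too. The authors filtered cells on detected genes, mitochondrial UMIs and Scrublet scores, normalised each library with SCT, integrated them with Seurat and named Louvain clusters from markers. Those names were used as deposited, with no further doublet removal. The annotation release and its use of strand are not given in the sources used here. In the first matrix 14536 of 15668 identifiers matched a symbol, and 13 other columns of the cell table were left unused.

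Counts were summed per label and library over cells with over 2000 detected genes, then scaled to CPM (Python 3.11.15, numpy 2.4.6, scipy 1.17.1, pandas 2.3.3). Poisson, Clopper-Pearson and conditional binomial intervals are exact at 95%. No test between groups was run. Totals for the 6 libraries used the 15668 genes in both matrices. The calls were checked on simulated counts.

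The 32 gene lists (460 genes, 15 without a row) and the labelled cells were chosen with earlier results of these data known. Named against other labels were the 25 genes with the highest smaller-of-2-libraries log2 ratio to the highest other label (50 CPM or more in both, pseudocount 10 CPM) and the 10 lowest. Named between genotypes were the 12 highest and 12 lowest log2 ratios (mean of 50 CPM or more, pseudocount 50 CPM), leaving out Xist, Y-linked and haemoglobin genes and the 6 genes of the locus. The text may also name markers, list members and the locus genes, and list medians were read for 5 or more measured members. Of the genes this rule gives between genotypes, 1 is not reported here. Genes of the finer clusters were named after their values were seen. Alternatives were other limits on detected genes, floors, pseudocounts, means over cells, median-of-ratios scaling, thinning, leaving out cells with 3 or more of 12 muscle genes, and other denominators; reading each finer cluster alone was added after seeing the data. Promoter windows are from RefSeq (GRCm38.p6) and gene positions from GENCODE on NCBIM37.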

Additional observations from a re-analysis of the deposited data

Results flagged for a closer look

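These genes had Dup to wild-type ratios whose intervals excluded 1 in opposite directions in the labelled cells and in another label, each from 1 library per genotype, and the difference was not tested. Osr1 had a ratio of 1.88 in the labelled cells against 0.381 in Muscle, 0.361 in Autopod mesenchyme and 0.724 in Zeugopod mesenchyme. Ebf1 had 0.630 in the labelled cells against 1.04 in Zeugopod mesenchyme and 1.44 in Stylopod mesenchyme, but its value in the labelled cells joins 0.324 in finer cluster 16 and 2.97 in finer cluster 18. Col1a1 had 1.25 in the labelled cells against 0.715 in Autopod mesenchyme.

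Calb2 had 1.43 in the labelled cells against 0.279 in Autopod mesenchyme and 0.634 in Zeugopod mesenchyme, where its level was at most 8.02 CPM. Dnm3, a dynamin gene, had 1.54 in the labelled cells against 0.621 in Autopod mesenchyme and 0.776 in Zeugopod mesenchyme. Crabp1 had 1.89 in the labelled cells against 0.685 in Autopod mesenchyme, Cdo1 had 1.87 in the labelled cells against 0.721 there, and Tpm1 had 1.57 in the labelled cells against 0.782 there. Twist2 had 1.88 in the labelled cells against 0.520 in Muscle.

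Among genes lower in Dup, Scx had 0.496 in the labelled cells against 1.08 in Stylopod mesenchyme, and Ptn, which encodes the growth factor pleiotrophin, 0.637 in the labelled cells against 1.07 in Autopod mesenchyme.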

How the results depend on the processing

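No paired analysis was possible because each group had 1 library, and for the same reason no library could be left out. The share ratio of 1.1 was 1.59 per Muscle cell and between 0.896 and 1.09 under the other alternatives. The 16 leading genes became 9 with over 3000 detected genes (42 Dup and 54 wild-type cells), 9 with a floor of 100 CPM and 8 with a pseudocount of 50 CPM, all of them among the 16. The 12 higher genes became 28 with over 3000 detected genes, 28 with a pseudocount of 10 CPM and 4 with 100 CPM. In finer clusters 16 and 18 alone they became 19 and 30. Of the 12, 8 were kept with over 3000 detected genes, and 10 and 9 in finer clusters 16 and 18. The 22 lower genes became 24 with over 3000 detected genes, 83 with a pseudocount of 10 CPM and 12 with 100 CPM. They became 36 as means over cells, 49 after thinning, and 39 and 34 in finer clusters 16 and 18. Of the 22, 11 were kept with over 3000 detected genes, and 21 and 9 in finer clusters 16 and 18. Median-of-ratios scaling raised the log2 ratio of Dup to wild-type levels by 0.14 before the pseudocount was added, and by less afterwards. It gave 18 higher and 15 lower genes, against 12 and 22.

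The label to highest-label ratio of Osr2 in Dup was 0.827 with over 3000 detected genes. That of Ebf1 was 0.198 (over 3000 detected genes) and 0.0914 (thinned) in Dup, and 0.295, 0.106 (mean over cells) and 0.122 (thinned) in wild type, so both markers stayed below the highest label. With over 3000 detected genes, list medians of log2 ratios were 0.0437 for signals to muscle precursors, -0.12 for their receptors, 0.16 for Wnt and 0.16 for dermis, the last 2 reversed in sign, and -1.16 for erythroid. With a floor of 20 CPM they were -0.11 for Wnt and -0.0578 for dermis. The dermis median was also -0.0928 with a pseudocount of 100 CPM, -0.12 with no limit on detected genes and -0.0474 under median-of-ratios scaling, where the erythroid median was -0.61. The Fibin ratio reversed to 1.13 with over 3000 detected genes and 1.19 in finer cluster 18, and after thinning Msi2 in Dup and Id3 in wild type stood at 1.07 and 1.01 times the lowest other label. The cause of these moves was not tested. For the duplicated genes and their sum, 25 of 25 alternatives moved the ratio by less than its interval. Leaving out cells with 3 or more muscle genes removed 0 labelled cells.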
